A study of Mus musculus with 6 samples.

Results

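The miRNAs described here are those best known from red blood cells: mmu-miR-451a, both arms of miR-144 (mmu-miR-144-3p and mmu-miR-144-5p), and the 5p arms listed as mmu-miR-486a-5p and mmu-miR-486b-5p. They were taken by their names as 5 of the 1915 mature miRNAs counted in every library. All 5 reached the minimum of 10 reads over the 6 libraries together, and so were among the 1120 tested for a sex difference. The small RNA-seq samples were whole brain RNA of wild-type C57BL/6 mouse embryos at E15.5, a mid-gestation stage counted in embryonic days. There were 3 female and 3 male libraries, each from a pool of the RNA of 2 to 3 individuals, with sex read from the gonads by the presence or absence of testicular cords. Neither sex carried a transgene or received a treatment, so sex is the labelled difference between the groups. Whether blood was removed from the brains is not given in the sources used here.

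In red cell precursors, the transcription factor GATA1 drives 1 primary transcript that holds miR-144 and miR-451a side by side, and miR-451a accumulates to high levels as the cells mature. miR-144 is cut by Drosha and Dicer in the usual way, so that both arms of its hairpin can be loaded into Argonaute, while the miR-451a hairpin is too short for Dicer and is sliced by Ago2 instead. miR-486 lies in an intron of Ank1, which encodes ankyrin-1 of the red cell membrane skeleton, and is also made in skeletal and heart muscle. Blood that stays in the vessels of a dissected organ carries these miRNAs into its RNA, and for that reason miR-451a is widely used as a marker of red cells in tissue and plasma samples.

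In NCBIM37 (mm9, GENCODE vM1 annotation), the miR-144 precursor is at chr11:77886507-77886572 and the miR-451a precursor at chr11:77886672-77886743, both on the plus strand, with 99 bases between them. Neither overlaps another annotated gene, and the nearest gene other than a miRNA is Eral1, 135 bases from the miR-451a precursor and 306 bases from the miR-144 precursor. The miR-486a precursor is at chr8:24253027-24253154 on the plus strand. It overlaps Ank1 on the same strand and Gm15816 on the opposite strand, and it overlaps no exon of either, so it is intronic in Ank1. Mature sequences were taken from RefSeq (table of build GRCm38.p6), which held 3 of the 5 members, and they are shown because the seed, bases 2 to 8 in capitals, sets which transcripts a miRNA can bind and because they place each arm in its hairpin.
miR-451a: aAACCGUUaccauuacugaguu
miR-144-3p: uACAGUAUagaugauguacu
miR-144-5p: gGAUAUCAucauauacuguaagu
The 3 seeds differ from each other, and none was shared with another of the 1623 mature miRNAs of the count files that had a sequence. In mm9 the miR-144-5p sequence matched chr11:77886512-77886534, miR-144-3p chr11:77886549-77886568 and miR-451a chr11:77886688-77886709. Mature miR-451a covers bases 17 to 38 of its 72-base hairpin and so runs 2 bases past the middle of the hairpin, whereas the arms of miR-144 lie on either side of their loop. The GC content of the mature sequence was 36.4% for miR-451a, 30.0% for miR-144-3p and 30.4% for miR-144-5p. The GC content of the precursor was 47.2% for miR-451a, 37.9% for miR-144 and 63.3% for miR-486a.

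The libraries held 14802675 to 59362011 reads on miRNAs. Female library 2 was the deepest and stood apart: it had 660 miRNAs with at least 1 read, against 790 to 915 in the others, and a median count over its detected miRNAs of 1846.5 reads, against 218 to 352 in the others. It is kept here, and sex differences of the members that rest on it are given with and without it. The tissue label was checked on miR-9-5p, a miRNA of neural progenitors, which was at 148598 CPM or more in every library. Levels are counts per 1000000 reads of the library total (CPM), given for each sex in the order of libraries 1, 2 and 3, and sex differences come from edgeR's quasi-likelihood test with TMM scaling and Benjamini-Hochberg adjustment over the 1120 miRNAs, with a log2 fold change above 0 where males were higher. The protocol names no molecular identifiers, so intervals on single libraries cover counting error only, and p-values cover the spread between these pools. In bulk tissue, fewer red cells and less of a miRNA per cell cannot be told apart.

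Reads were assigned to mature miRNAs of nearly equal length, so CPM needs no length scaling. miR-486a-5p and miR-486b-5p ranked between 75 and 116 among the miRNAs detected in a library. miR-451a ranked between 325 and 419, miR-144-5p between 361 and 447, and miR-144-3p between 482 and 829. The order miR-486a-5p, miR-451a, miR-144-5p, miR-144-3p held in 5 of the 6 libraries, and in female library 2 miR-144-5p stood above miR-451a. In female library 3 the counting intervals of miR-451a (27.1 to 30.7 CPM) and miR-144-5p (25.3 to 28.7 CPM) overlapped, so those neighbours were not separated there.

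miR-451a, the member most particular to red cells, was at 41.5, 10.7 and 28.9 CPM in the females. It was at 37.7, 35.7 and 24.4 CPM in the males. These levels rest on 577 to 1568 reads per library. Female library 2 was the lowest of the 6, female library 1 the highest, and the sexes overlapped. The mean was 27.0 ± 15.52 CPM (SD, n = 3) in females and 32.6 ± 7.17 CPM (SD, n = 3) in males, and without female library 2 the female mean was 35.2 CPM. The log2 fold change was 0.18 with a standard error (SE) of 0.41 and an adjusted p of 0.869 (edgeR). Its 95% interval, -0.67 to 1.03, leaves room for a change of either sign. Leaving out female library 2 turned the direction, to a log2 fold change of -0.18 with an adjusted p of 0.743.

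miR-144-5p, the arm on the 5′ side of the miR-144 hairpin, was at 12.1, 12.9 and 27.0 CPM in the females, and at 12.4, 11.5 and 9.94 CPM in the males. Female library 3 was above all others and the remaining 5 libraries lay close together, with the sexes overlapping. After TMM scaling the lowest female value (11.98 CPM) was just above the highest male value (11.97 CPM), so that overlap also depends on the scaling. The mean was 17.3 ± 8.36 CPM in females and 11.3 ± 1.23 CPM in males (SD, n = 3 each). The log2 fold change was -0.74 (SE 0.52, adjusted p = 0.480, edgeR; 95% interval -1.82 to 0.34), and without female library 3 it was -0.30.

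miR-144-3p, the arm on the 3′ side, was the least abundant member, at 6.62, 2.86 and 6.37 CPM in the females and at 3.75, 4.67 and 0.212 CPM in the males. The value of male library 3 rests on 5 reads, for which the exact Poisson 95% interval is 0.0687 to 0.494 CPM. The other 5 libraries held 70 to 228 reads. Male library 3 was therefore far below the rest, by more than counting error, and the sexes overlapped. The mean was 5.28 ± 2.10 CPM in females and 2.88 ± 2.35 CPM in males (SD, n = 3 each), and the log2 fold change was -0.97 (SE 1.13, adjusted p = 0.703, edgeR; 95% interval -3.30 to 1.37). Without male library 3 it was -0.42, and without male library 2 it was -1.64.

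miR-486a-5p, the most abundant member together with miR-486b-5p, was at 727, 1341 and 611 CPM in the females and at 1930.2, 1729.9 and 1571 CPM in the males. All 3 male libraries were above all 3 female libraries on this scale, and female library 2 was the closest of the females to the males. The mean was 893 ± 392 CPM in females and 1744 ± 180.1 CPM in males (SD, n = 3 each). After TMM scaling, female library 2 (1518 CPM) stood just above male library 3 (1517 CPM), so the absence of overlap depends on the scaling. The log2 fold change was 0.80 (SE 0.25, adjusted p = 0.0471, edgeR; 95% interval 0.28 to 1.33). miR-486b-5p gave 0.81 (SE 0.25, adjusted p = 0.0458), and since both names had nearly the same count in every library, this is 1 result and not 2.

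Of the members, 2 of 5 passed the threshold, both higher in males, against 8.48% of all 1120 miRNAs tested in either direction and 3.21% in the male direction. The 2 miR-486 names were also the members without overlap on library totals, male higher, against 15.4% of the miRNAs tested. The call was lost without female library 1 (log2 fold change 0.73, adjusted p = 0.0837), without female library 3 (0.57, adjusted p = 0.286) and without male library 1 (0.80, adjusted p = 0.368), and it was stronger without female library 2 (1.31, adjusted p = 3.78e-08). Those 4 fits called 8.5%, 5.66%, 2.73% and 18.3% of all miRNAs they tested. The log2 fold change of miR-486a-5p was above 0 in each of 18 alternatives and past the threshold in 11 of them, with adjusted p from 2.5e-14 to 0.424. miR-451a, miR-144-3p and miR-144-5p did not pass in any of the 18, 17 and 18 alternatives run for them. Both miR-144 arms were lower in males in each of those, and miR-451a changed sign in 2.

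**Figure D1:**
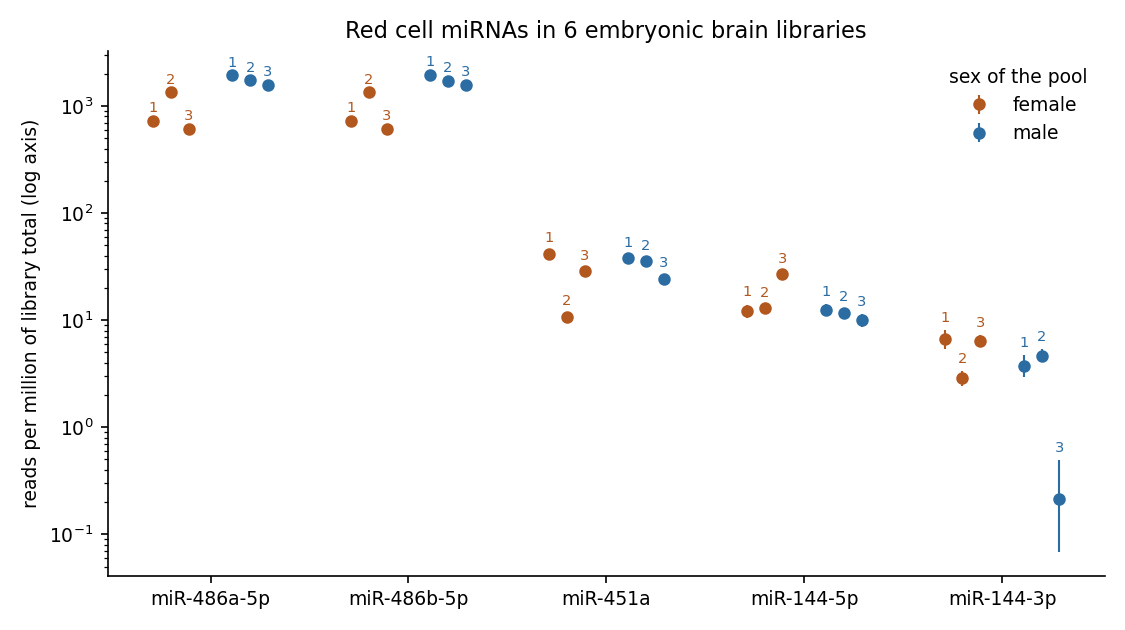
Level of each member in the 6 brain libraries, in CPM of the library total on a log axis. Numbers mark the library within a sex, and bars are exact Poisson 95% intervals for counting error. The 3 male libraries (1571 to 1930.2 CPM) lie above the 3 female libraries (611 to 1341 CPM) for miR-486a-5p, the sexes overlap for miR-451a and both miR-144 arms, and male library 3 stands alone at 0.212 CPM for miR-144-3p.

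**Figure D2:**
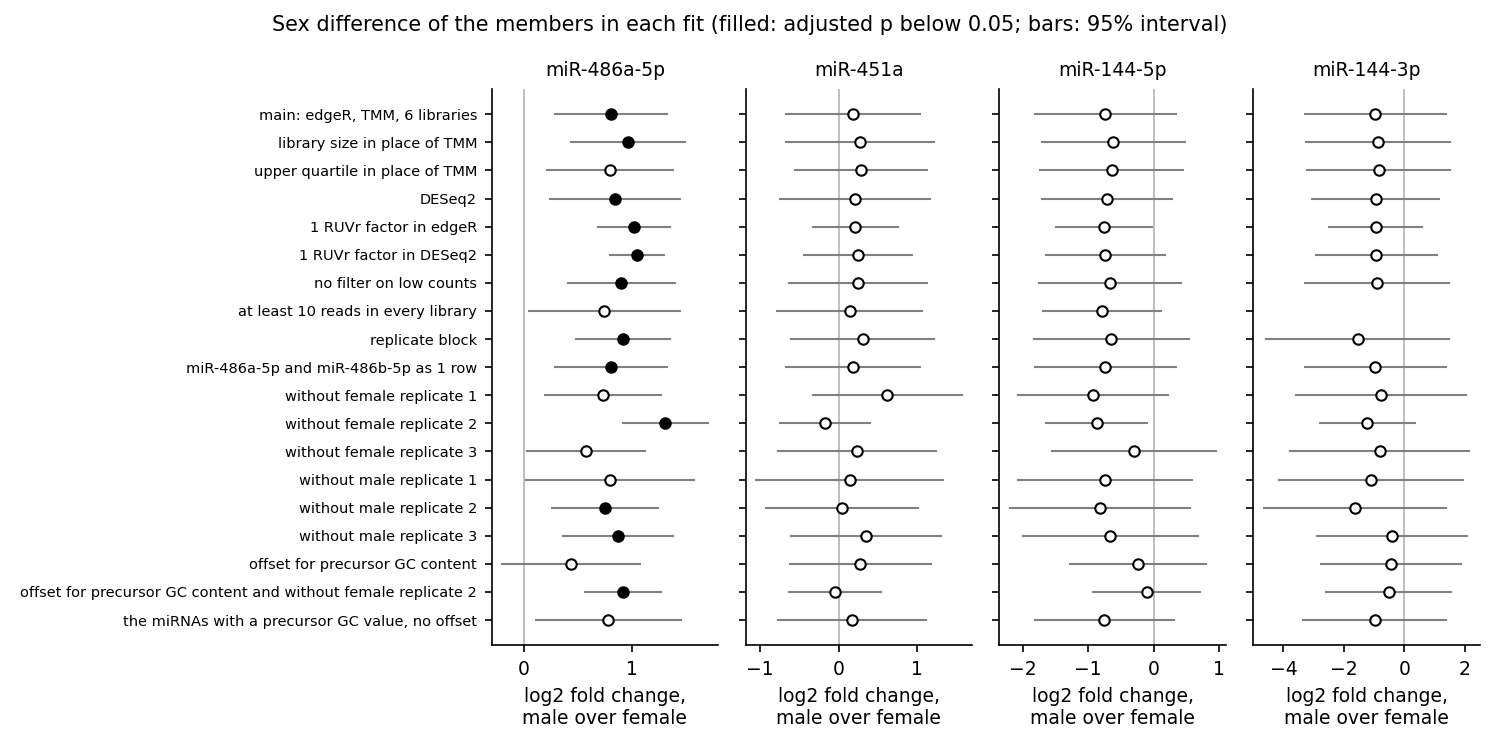
Log2 fold change, male over female, of 4 members in the edgeR test with TMM scaling on 6 libraries (top row) and in each alternative, with 95% intervals. Filled points have an adjusted p below 0.05. miR-486a-5p stays to the right of 0 in each fit and is filled in the top row and in 11 of the 18 alternatives, while no point is filled for the other 3 members. Under the filter of at least 10 reads in every library, miR-144-3p is left out by its 5 reads in male library 3.

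The spread between libraries of 1 sex was compared with that of miRNAs of similar abundance (mean reads within 2-fold). The within-sex SD of log2 CPM was 0.76 for miR-451a, where the median of 123 such miRNAs was 0.44, and 0.43 for miR-486a-5p, where the median of 53 was 0.27. It was 1.77 for miR-144-3p (median of 142 miRNAs, 1.17) and 0.47 for miR-144-5p (median of 129, 0.57). Thus 3 of the 4 distinct members varied more between pools of 1 sex than the typical miRNA of their abundance, and miR-144-5p varied less. Single libraries weigh on this. Female library 2 stood apart from the other females for miR-451a (10.7 against 41.5 and 28.9 CPM) and miR-486a-5p (1341 against 727 and 611 CPM). For miR-144-3p, male library 3 had 5 reads. The spread without these libraries was not computed. Counting alone gives an SD of 0.053 for miR-451a, 0.28 for miR-144-3p, 0.080 for miR-144-5p and 0.0087 for miR-486a-5p, so that the spread of each is mostly not counting error.

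The precursors have other mature products, which were counted separately. miR-486a-3p, the opposite arm of the miR-486a hairpin, was at 2.50, 14.1 and 2.43 CPM in the females and at 5.35, 6.47 and 5.37 CPM in the males. Female library 2 was the highest, and the log2 fold change was -0.34 (SE 0.89, adjusted p = 0.880, edgeR). The direction rested on that library: without it the female mean was 2.46 CPM against 5.73 CPM in males, and the log2 fold change was 1.16 (adjusted p = 0.393). The 3p arm made up 0.277% to 0.396% of the reads on both arms of miR-486a in the other 5 libraries and 1.04% in female library 2. Reads counted as miR-486a-5p may include those of the miR-486b hairpin, so this may not be the arm share of 1 hairpin. miR-486b-3p had 1, 310 and 0 reads in the females and 0, 19 and 22 reads in the males, with nearly all of its female reads in library 2 (adjusted p = 0.685, edgeR). miR-451b, which is read from the opposite strand of the miR-451a locus, had 0 reads in all 6 libraries, where a count of 0 allows up to 0.0505 to 0.203 CPM depending on depth.

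The members' share of a library, taken here as an index of its blood content, was 0.151%, 0.271% and 0.128% in the females. It was 0.393%, 0.351% and 0.317% in the males. The mean was 0.183% ± 0.0764 in females and 0.354% ± 0.0378 in males (SD, n = 3 each), with every male library above every female library. After TMM scaling, the share was almost the same in female library 2 (0.30628%) and male library 3 (0.30630%), so the clear split depends on the scaling. This sum is nearly all miR-486: the 2 miR-486 names took 95.2% to 99.0% of the members' reads, and if both names count the same reads, the sum holds those reads 2 times. With miR-486b-5p left out, the female mean was 0.0942% and the male mean 0.179%.

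The locus on chromosome 11 gave another picture. miR-451a and the miR-144 arms together were at 60.3, 26.4 and 62.2 CPM in the females and at 53.8, 51.9 and 34.6 CPM in the males. The sexes overlapped, and female library 2 was the lowest of the 6 by this sum while it was the highest of the females by miR-486a-5p. An index of blood content built on miR-451a and miR-144 and an index built on miR-486 therefore ordered these libraries differently.

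Ratios between members within a library do not depend on scaling. They were compared between the sexes on the log2 scale by two-sided exact permutation tests over libraries, where 3 against 3 cannot give a p below 0.1, with Benjamini-Hochberg adjustment over the 4 ratios. Each ratio of reads also contains the preferences of ligation and amplification for each sequence, so the ratios are compared between libraries and not read as molar amounts. The first ratio sets miR-451a against miR-486a-5p, the products of 2 loci that are both used in red cells. There were 5.72, 0.795 and 4.72 miR-451a reads per 100 miR-486a-5p reads in the females. There were 1.96, 2.06 and 1.55 in the males.

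The 3 male libraries lay close together, while the females held both the highest and the lowest value, so that the range over the 6 libraries was 7.19-fold. The log2 difference, male minus female, was -0.59 (exact permutation p = 0.5, adjusted p = 0.667). It ran from -1.49 to -0.07 when each library was left out in turn. Without female library 2, the other female libraries were both above all male libraries, with a log2 difference of -1.49.

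The ratio of miR-144-3p to miR-451a, 2 products of the same locus that take different routes of maturation, was 15.9, 26.9 and 22.1 reads per 100 miR-451a reads in the females. It was 9.93, 13.1 and 0.867 in the males. All female libraries were above all male libraries, which is the only one of the 4 ratios without overlap. The log2 difference was -2.13, and the exact permutation p was 0.1, the smallest that 3 against 3 can give (adjusted p = 0.4). The size depended on male library 3, without which the log2 difference was -0.89.

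Within the miR-144 hairpin, miR-144-3p made up 35.4%, 18.2% and 19.1% of the reads on both arms in the females and 23.3%, 28.8% and 2.08% in the males. The exact binomial 95% interval was 0.680% to 4.79% in male library 3 and began at 15.7% or above in each of the other 5. The 5p arm thus had more reads than the 3p arm in each library, and male library 3 was the one far from the rest. For the ratio of miR-144-3p to miR-144-5p, the log2 difference was -1.15 (exact permutation p = 0.7, adjusted p = 0.7), and it changed sign to 0.19 without male library 3. In that library miR-451a (24.4 CPM) and miR-144-5p (9.94 CPM) were each the lowest of the males but near the rest, so the drop was in the 3p arm.

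miR-486a-5p and miR-486b-5p differed by 12 to 240 reads in counts of 10716 to 79594 reads per library, or by 0.0549% to 0.666%. The log2 difference of their ratio between the sexes was 0.0044 (exact permutation p = 0.5, adjusted p = 0.667). Whether a read that matches both names was counted under each or shared between them is not given in the sources used here. The names are treated as 1 measurement, and with miR-486b-5p dropped from the table the log2 fold change of miR-486a-5p was 0.81 (SE 0.25, adjusted p = 0.0443, edgeR, where 8.49% of the miRNAs tested passed).

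**Figure D3:**
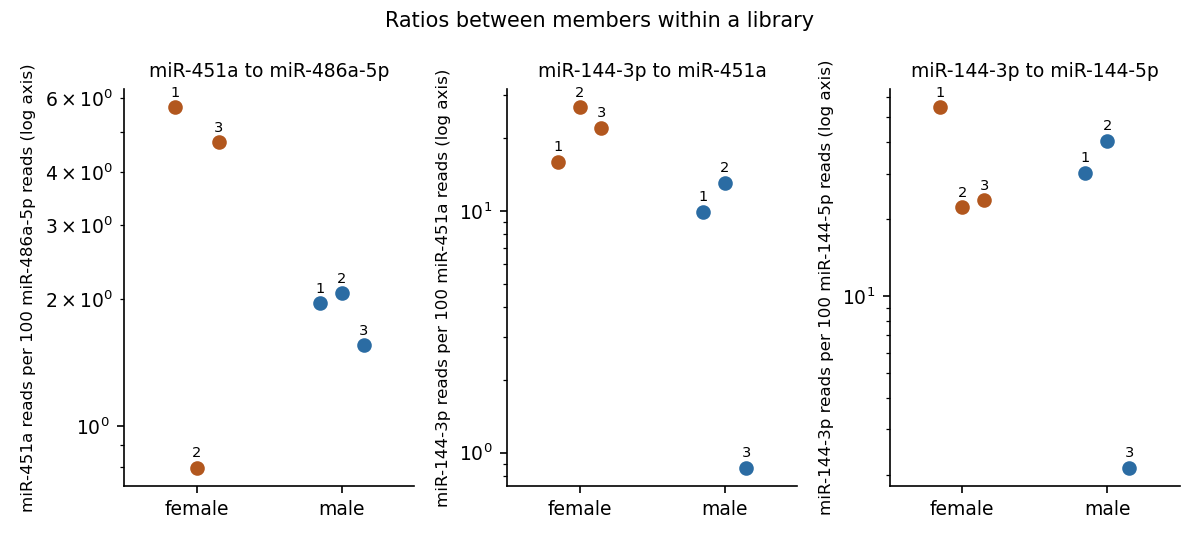
Reads of 1 member per 100 reads of another in each library, on log axes, with libraries numbered within a sex. For miR-144-3p to miR-451a, the females (15.9 to 26.9) lie above the males (0.867 to 13.1). For miR-451a to miR-486a-5p, female library 2 (0.795) stands below all others, and for miR-144-3p to miR-144-5p, male library 3 (2.13) does.

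The miRNAs whose pattern over the 6 libraries was most like that of a member were found by the SD of the log2 ratio of their CPM, over the 529 miRNAs that had a read in every library and averaged 100 reads or more. For miR-451a they were miR-129-2-3p (SD 0.26), miR-187-3p (0.27) and miR-339-5p (0.30), where the median over the 529 was 0.80. miR-144-5p had an SD of 0.88 with miR-451a and miR-486a-5p 1.05, with 338 and 428 miRNAs closer to miR-451a than these. For miR-486a-5p they were miR-485-3p (0.11), miR-1306-5p (0.17) and miR-351-5p (0.18), with 373 miRNAs closer than miR-451a. For miR-144-3p they were miR-10a-3p (1.38), miR-96-5p (1.41) and miR-301b-3p (1.42), and 148 were closer than miR-451a, its neighbour in the genome. The other arm of its hairpin, miR-144-5p, had an SD of 1.67, with 59 closer. Apart from miR-486b-5p for miR-486a-5p, no member was thus among the 3 miRNAs closest to miR-451a, miR-144-3p or miR-486a-5p. Closeness to miR-144-5p was not ranked. The points share libraries and their depth, and the likeness is a description.

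Other miRNAs that blood carries were set beside the members. Of 8 miRNAs that are abundant in red cells but also made in other tissues, 3 were lower in males and 5 did not pass. The 3 were miR-15a-5p (log2 fold change -1.21, adjusted p = 0.00126, edgeR), miR-22-3p (-0.94, adjusted p = 0.00892) and miR-16-5p (-0.85, adjusted p = 0.0272). The most abundant of the 8, miR-92a-3p and miR-25-3p, had values of 0.11 and 0.21 and did not pass. The median of the 8 was -0.04, and the median over all 1120 miRNAs tested was -0.02. Of those 1120, 59 were lower in males past the threshold and 36 (3.21%) were higher. These numbers stand beside the calls in this list and in the lists that follow. The count past the threshold was 0 of 8 without male library 1, 1 without female library 3, 2 without male library 3 and, with an offset for GC content, 1 of the 7 that had a GC value. Over all miRNAs tested, those fits called 2.73%, 5.66%, 83 of 1085 and 11.5%. The number of calls thus changed over the whole table as well as in the list.

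Of 7 miRNAs of the leukocyte and platelet lineage, 0 passed in edgeR or DESeq2 (0 also at an unadjusted p below 0.05), with a median of 0.11. Without female library 2, 1 of the 7 passed, and 1 passed with an offset for GC content. Their summed level was 287 to 476 CPM in females and 398 to 528 CPM in males, mostly miR-146a-5p, which many tissues make, with miR-150-5p and miR-155-5p. miR-223-3p, a defining miRNA of myeloid cells, was at 17.9 to 30.4 CPM in each library, near the level of miR-451a. Other miRNAs of the list were less even. miR-142a-3p ran from 0.0337 CPM in female library 2 to 5.11 CPM in female library 3 (log2 fold change -2.55, adjusted p = 0.480, edgeR). miR-142a-5p ran from 1.30 to 27.5 CPM in the same libraries (-0.52, adjusted p = 0.753). The miR-142a-3p value of female library 2 was below 3 reads, which are 0.0505 CPM in that library. Of 5 miRNAs of the vessel wall, 2 were lower in males, both arms of the endothelial miR-126a: miR-126a-3p at -0.91 (adjusted p = 0.0172, edgeR) and miR-126a-5p at -0.90 (adjusted p = 0.0156). miR-143-3p, a smooth muscle miRNA, was at -0.61 (adjusted p = 0.104). miR-145a-5p went the other way, at 0.49 (adjusted p = 0.202, edgeR), and miR-145a-3p was at -0.16 (adjusted p = 0.856). The count was 0 of 5 without female library 3, without male library 1 and with library size in place of TMM, 1 without male library 3 or with the GC offset, and 4 with 1 RUVr factor. With all 6 libraries, TMM scaling and neither an RUVr factor nor an offset, no miRNA of these 2 lists was higher in males past the threshold. The directions of the calls under 1 RUVr factor or the GC offset are not given here.

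miR-122-5p, which defines hepatocytes, was at 4.72 to 16.1 CPM, in the range of miR-144, and did not pass (log2 fold change 0.39, adjusted p = 0.823, edgeR). The fetal liver is the main site of red cell formation at this stage. Of the 3 liver miRNAs tested, 1 was lower in males, miR-194-5p (-0.82, adjusted p = 0.0272), and the third, miR-192-5p, was at -0.66 (adjusted p = 0.185). No liver miRNA passed in edgeR without female library 3, without male library 1 or with library size scaling, where miR-194-5p lost its call, and 2 passed without female library 2.

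Muscle makes miR-486 as well, and its miRNAs were set beside the miR-486 names. All 5 muscle miRNAs tested were higher in males: miR-206-3p (log2 fold change 4.02), miR-133b-3p (3.04), miR-133a-3p (2.78), miR-499-5p (1.86) and miR-1a-3p (1.17), with adjusted p from 1.18e-09 to 0.0237 (edgeR). The heart miRNAs miR-208a-3p and miR-208b-3p had 0 reads in each library, with the floors given for miR-451b. The count past the threshold was 2 of 5 without female library 3, 2 without male library 1, and 3 with the GC offset. The summed level of the muscle list was 1191, 392 and 546 CPM in the females and 5980, 6154 and 5526 CPM in the males. The male libraries were above the female ones, as for miR-486a-5p. Within the females the order was another: female library 2 had the lowest muscle sum and the highest miR-486a-5p. The part of muscle RNA in the miR-486 difference was not tested.

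Epithelial miRNAs, such as miR-205-5p and the miR-200 family, followed the same split, with 5 of 6 higher in males and sums of 429 to 1133 CPM in females and 7990 to 8284 CPM in males. Their largest changes were in miR-205-5p (log2 fold change 5.04), miR-200c-3p (3.18) and miR-200b-3p (2.91), with 2.35 for miR-429-3p and 1.91 for miR-200a-3p, against 0.80 for miR-486a-5p. Of the 7 brain miRNAs, 4 went the other way and were lower in males, and the median of the list was -0.82. The 4 were miR-137-3p (-1.55), miR-9-3p (-1.20), miR-138-5p (-0.99) and miR-218-5p (-0.82), while miR-124-3p was at -0.56 and miR-9-5p at -0.36 without passing. miR-128-3p was nearly level between the sexes, at -0.09 (adjusted p = 0.870, edgeR). The count was 1 of 7 without male library 1, and 2 without female library 1, female library 3 or male library 2 and with library size scaling. miR-451a, with a value of 0.18 and an upper limit of 1.03, did not show a male excess of the size of the muscle or epithelial lists, whose medians were 2.78 and 2.63.

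**Figure D4:**
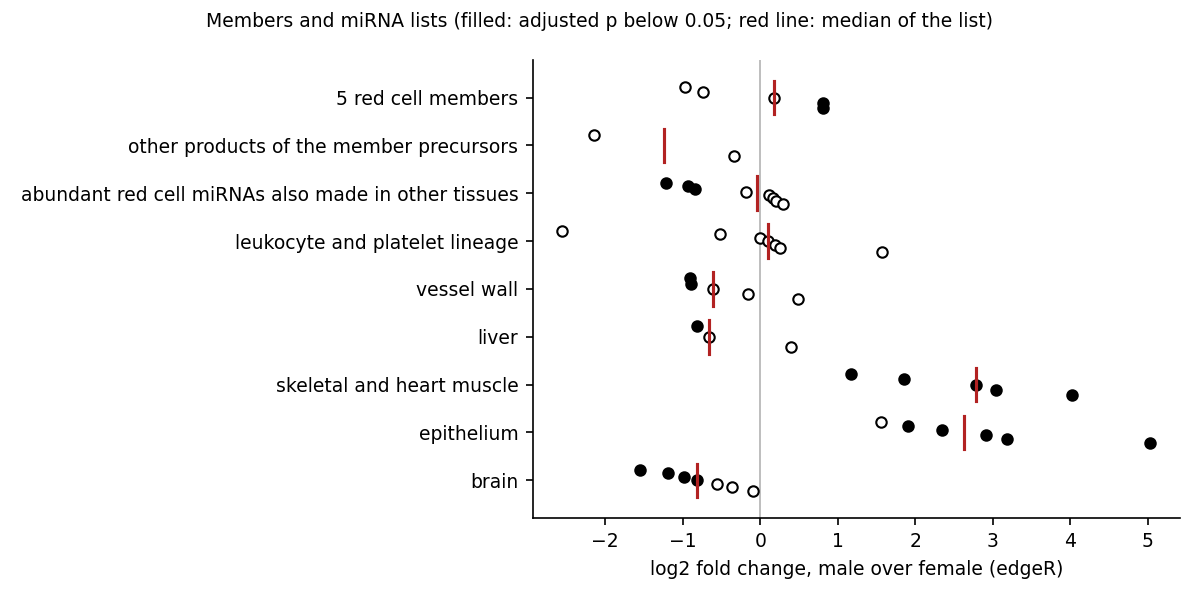
Log2 fold change, male over female, from edgeR for the members and for each list of miRNAs, with 1 point per miRNA and a red line at the median of the list. Filled points have an adjusted p below 0.05. The miR-486 names are the filled members at 0.80 and 0.81, the muscle and epithelial lists lie to the right with medians of 2.78 and 2.63, and the leukocyte list is centred near 0 with a median of 0.11.

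GC content moved with the sex difference across miRNAs. Among miRNAs that averaged 100 reads or more, the median log2 fold change was 0.26 for the 67 with precursors within 5 percentage points of miR-486a, -0.16 for the 189 near miR-451a and -0.44 for the 99 near miR-144, against -0.09 for all 454 with a value. The members' own values lie in that order of precursor GC content, with miR-486a-5p highest and the miR-144 arms lowest. By GC content of the mature sequence, the 115 miRNAs within 5 points of miR-451a had a median of -0.54, against 0.18 for miR-451a itself. The 33 near miR-144-3p had a median of -0.85, against -0.97 for miR-144-3p, and all 474 with a value had -0.07. Where counts were offset for precursor GC content, library by library (an alternative added with the data already seen), the log2 fold change was 0.43 for miR-486a-5p (adjusted p = 0.424, edgeR). Under that offset it was 0.28 for miR-451a, -0.23 for miR-144-5p and -0.45 for miR-144-3p, none past the threshold, while 11.5% of the 646 miRNAs tested passed. Without the offset, over the same miRNAs, miR-486a-5p had 0.78 (adjusted p = 0.131, with 12.2% of all passing), and with the offset and without female library 2 it had 0.92 (adjusted p = 0.00176, with 23.5% of all passing). The part of GC content in these differences was not tested further.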

How the data were processed

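The authors trimmed adaptors with cutadapt (version 1.15), mapped reads with Bowtie (version 1.2.1) to miRBase v.21 precursor and mature sequences and to mm9 within the miRDeep2 workflow, and deposited the raw count of reads per mature miRNA for each library, with no normalization. From those counts, 1120 miRNAs (10 or more reads in total) were tested for sex with edgeR 4.0.16 (R 4.3.3) by the quasi-likelihood test with TMM scaling and Benjamini-Hochberg adjustment (threshold 0.05). The SE is the size of the log2 fold change over the root of the F statistic. CPM is per 1000000 reads of the library total, and single-library intervals are exact (Poisson or Clopper-Pearson) 95% intervals. A floor for a count of 0 is 3 reads.

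Alternatives were library size or upper quartile scaling, DESeq2 1.42.0, 1 RUVr factor (coded by hand from the deviance residuals of edgeR) in edgeR and in DESeq2, other filters, the miR-486 names as 1 row, a replicate block, each library left out and, chosen after the data were seen, an offset for precursor GC content (a loess curve per library, span 0.75). The procedures were tested on simulated data.

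The members and lists were chosen with earlier results of these data known. Named miRNAs are the members, the other products of their precursors, of each list the 3 most abundant miRNAs and those past the threshold, and the 3 miRNAs closest in pattern to each of 3 members. The values of miR-223-3p, miR-142a-3p, miR-142a-5p, miR-145a-5p, miR-145a-3p and miR-128-3p were added after they were seen. So were the 0 counts of miR-208a-3p and miR-208b-3p. Names were matched to RefSeq for sequences (1623 of 1915). The RNA-seq and RT-qPCR of the study are not analysed here. No principal component or set test was used.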

Additional observations from a re-analysis of the deposited data

How the results depend on the processing

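The call for miR-486 held under library size, DESeq2, 1 RUVr factor, no filter and 1 row for both names. It was lost under upper quartile scaling (log2 fold change 0.80, adjusted p = 0.0944, and 0.80, adjusted p = 0.0917, for miR-486a-5p and miR-486b-5p, edgeR), with at least 10 reads in every library (0.74, adjusted p = 0.123, and 0.75, adjusted p = 0.121), and for miR-486a-5p on the miRNAs with a GC value (0.78) and with the GC offset (0.43). Of the members, 0 passed in edgeR in each of these 4 (2, 2, 1 and 0 had an unadjusted p below 0.05). DESeq2 was not run in these 4, and with its own scaling it called 2. In edgeR, 1 member passed with the miR-486 names as 1 row and with the GC offset without female library 2. In that last setting the log2 fold change of miR-451a was -0.046 (adjusted p = 0.916), and without female library 2 alone it was -0.18 (adjusted p = 0.743). The cause was not tested. Leaving out each library gave 0 to 2 members past the threshold, and log2 fold changes of 0.57 to 1.31 for miR-486a-5p, 0.58 to 1.32 for miR-486b-5p, -0.18 to 0.62 for miR-451a, -1.64 to -0.42 for miR-144-3p and -0.92 to -0.30 for miR-144-5p. The ratio differences ran from -1.49 to -0.07 (miR-451a to miR-486a-5p), -2.85 to -0.89 (miR-144-3p to miR-451a), -1.93 to 0.19 (miR-144-3p to miR-144-5p) and 0.00023 to 0.0067 (miR-486b-5p to miR-486a-5p). The members' share ran from 0.140% to 0.211% in females and 0.334% to 0.372% in males. It was 0.0942% and 0.179% without miR-486b-5p, and 0.382% and 0.702% with the 10 most abundant miRNAs left out of the denominator. Female and male libraries with the same number did not deviate together (correlations of -0.0493, -0.0109 and 0.0456), and they were treated as unpaired. Whether they shared a batch is not given in the sources used here, and these correlations cannot settle it. A replicate block gave 92 calls in place of 95 and values of 0.92 for miR-486a-5p (adjusted p = 0.00343, edgeR), 0.31 for miR-451a, -1.55 for miR-144-3p and -0.65 for miR-144-5p. Numbers of calls over all miRNAs ranged from 30 (without male library 1) to 257 (1 RUVr factor in DESeq2), with 129 in DESeq2, 228 with 1 RUVr factor in edgeR and 203 without female library 2. The median log2 fold change over all miRNAs was -0.02, and 0.11 with library size, 0.27 and 0.29 with 1 RUVr factor in edgeR and DESeq2. Against these, miR-451a had 0.18, and 0.27, 0.21 and 0.24.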
